A study of Mus musculus with 17 samples.

Results

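Cardiac fibroblasts (CFs) sorted 3, 4 and 5 days post-infarction (dpi), the window in which the study places the transition into reparative CFs, were compared with CFs sorted at 1 and 2 dpi. The comparison holds 14 of the 17 bulk libraries of the series, 8 of them in the window (4 at 3 dpi, 3 at 4 dpi and 1 at 5 dpi) and 6 early (3 at 1 dpi and 3 at 2 dpi). The 3 libraries of 6 dpi entered the estimate of the spread and are named only where they place a value. Members of a day were taken by the day in their label, and the days of each side were weighted equally, so that the single 5 dpi library carried as much as the 4 libraries of 3 dpi. The genes described are autosomal, and the fibroblast markers *Cthrc1*, *Ddah1*, *Postn*, *Fn1*, *Lox* and *Ptn* were left out of every count.

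All groups came from Collagen1a1-GFP+ reporter mice of the C57BL/6 strain, 8 to 10 weeks old, whose left anterior descending coronary artery had been ligated, and differed by the day after myocardial infarction. There was no uninjured group among the libraries analysed here. GFP was driven by the collagen 1a1 promoter, so that *Col1a1* itself marks the gate, and GFP+/CD31-/CD45- cells were sorted from digested ventricles after red cell lysis and an enrichment on antibody-coated beads. The 3′ ends of poly-A transcripts were read by MARS-seq. Neither the sex of the mice nor the samples pooled for amplification are given in the sources used here.

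After an infarction, resident fibroblasts leave their quiescent state, respond to inflammatory signals, divide, and then lay down and pull on the collagen scar that replaces dead muscle. The contractile form, with stress fibres of smooth muscle actin, is called the myofibroblast. Division itself runs in steps, with a phase of DNA copying followed by mitosis, and different sets of genes serve each of them.

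Total counts per library ranged from 8021815 to 22029938, and 3 counts, the smallest number taken as a measurement, corresponded to between 0.136 and 0.374 CPM, the count scaled to a common library size. Floors of this kind describe counting error alone, because copies made by PCR are no separate molecules. One library stood apart: the 3 pairs formed by 3 dpi replicate 2 with the other libraries of its day had a chi-square per degree of freedom of 175 to 230, against 23.0 to 133 in the other 15 replicate pairs. Y-linked counts exceeded those of *Xist* in every 2, 3 and 5 dpi library and in 2 of 3 at 1 dpi, and the reverse held in every 4 and 6 dpi library. A comparison of 4 with 3 dpi therefore cannot be told apart from this difference, and the labels name the 3 dpi libraries by another scheme than the others. The window comparison is not balanced for either of these. *Xist* was the higher in every 4 dpi library and in 1 early library, and the other naming occurs in the window alone. At 1 dpi, replicate 1 held 1670 *Xist* and 84 Y-linked counts, and replicate 2, taken as of the Y-linked pattern, held 461 and 1455. In the window libraries the lesser of these was at most 5 counts.

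The sorted cells carried fibroblast transcripts throughout, with fibroblast markers summing to between 19248 and 53019 CPM in the early and window libraries together. The sum includes *Col1a1*, which marks the gate, and the collagens *Col1a2* and *Col3a1*. Of the 10 markers, 3 were higher and 3 lower in the window, with a median log2 fold change of -0.46. Over all autosomal genes 5.24% were higher and 2.16% lower. *Ptprc*, which encodes the CD45 of the gate, was at most at 1.14 CPM early and 2.75 CPM in the window, and *Pecam1*, which encodes CD31, was between 0.886 and 12.8 CPM early and between 0.779 and 8.03 CPM in the window. Leukocyte markers nonetheless summed to between 34.7 and 345 CPM in the window against 15.6 to 58.2 CPM early. Of the 14 tested, 4 passed the test as higher, where 5.24% of all autosomal genes did. They were the macrophage genes *C1qa*, *C1qb*, *C1qc* and *Lyz2*. Markers of mural cells, the pericytes and smooth muscle cells of vessel walls, summed to between 111 and 241 CPM in the window. Early they summed to between 45.8 and 91.9 CPM, without overlap, and 5 of 9 passed as higher, against the same 5.24%. None of the endothelial, cardiomyocyte, mesothelial, Schwann or erythroid markers passed the edgeR test, where 4 endothelial and 1 cardiomyocyte marker had an unadjusted p under 0.05. In bulk RNA, more cells of a type and more RNA per cell cannot be told apart.

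**Figure D1:**
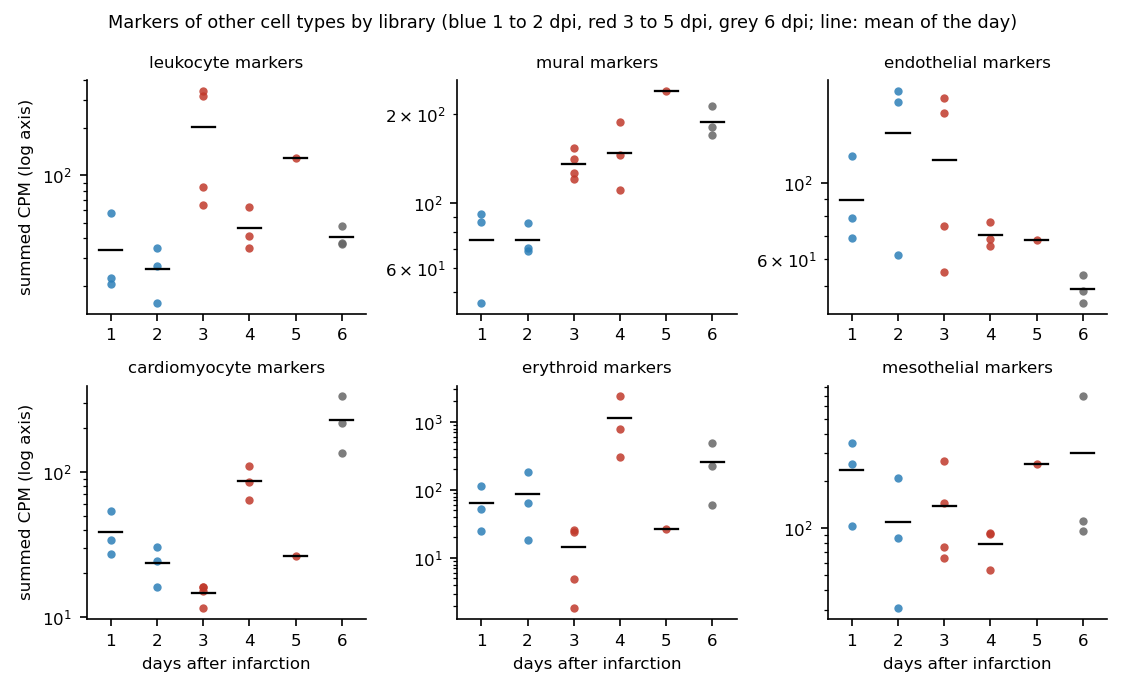
Summed CPM (log axis) of markers of 6 other cell types in each library by day after infarction, with blue points for 1 to 2 dpi, red for 3 to 5 dpi, grey for 6 dpi and a line at the mean of each day. The leukocyte sum was above 100 CPM in 3 window libraries, 3 dpi replicates 3 and 4 and the 5 dpi library, and the mural sums of all window libraries lay above all early ones.

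Of 13552 autosomal genes tested, 1003 differed between the window and 1 to 2 dpi at an adjusted p under 0.05 in edgeR's quasi-likelihood test (7.4% of those tested). More genes rose than fell, 710 (5.24%) against 293 (2.16%), and the counts of each list that follows stand beside these shares. The median log2 fold change over all autosomal genes was 0.0014, with quartiles at -0.31 and 0.36. The 8 window libraries lay entirely above the 6 early ones for 228 genes (1.68%) and entirely below for 84 (0.62%). Without 3 dpi replicate 2, 1539 genes changed, of which 927 rose and 612 fell. The number that fell was 189 without 1 dpi replicate 3 and 175 without 2 dpi replicate 2. Without the 3 window libraries above 100 CPM of leukocyte markers, a fit added after the data were seen, 454 genes rose and 179 fell. The single 5 dpi library is among these 3, so here and below that fit compares a window without 5 dpi and with fewer libraries. Whether calls lost in it follow from leukocyte RNA or from the missing day and libraries was not tested.

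Within each side fewer genes passed, in comparisons of fewer libraries. Between 2 and 1 dpi, with 3 libraries each, 24 genes passed (0.177%). Between 4 and 3 dpi, with 3 and 4 libraries, 358 passed (2.64%). Fewer libraries can detect fewer genes, so these counts do not measure how much the days differ. The window and 6 dpi differed in 1575 genes (11.6%).

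**Figure D2:**
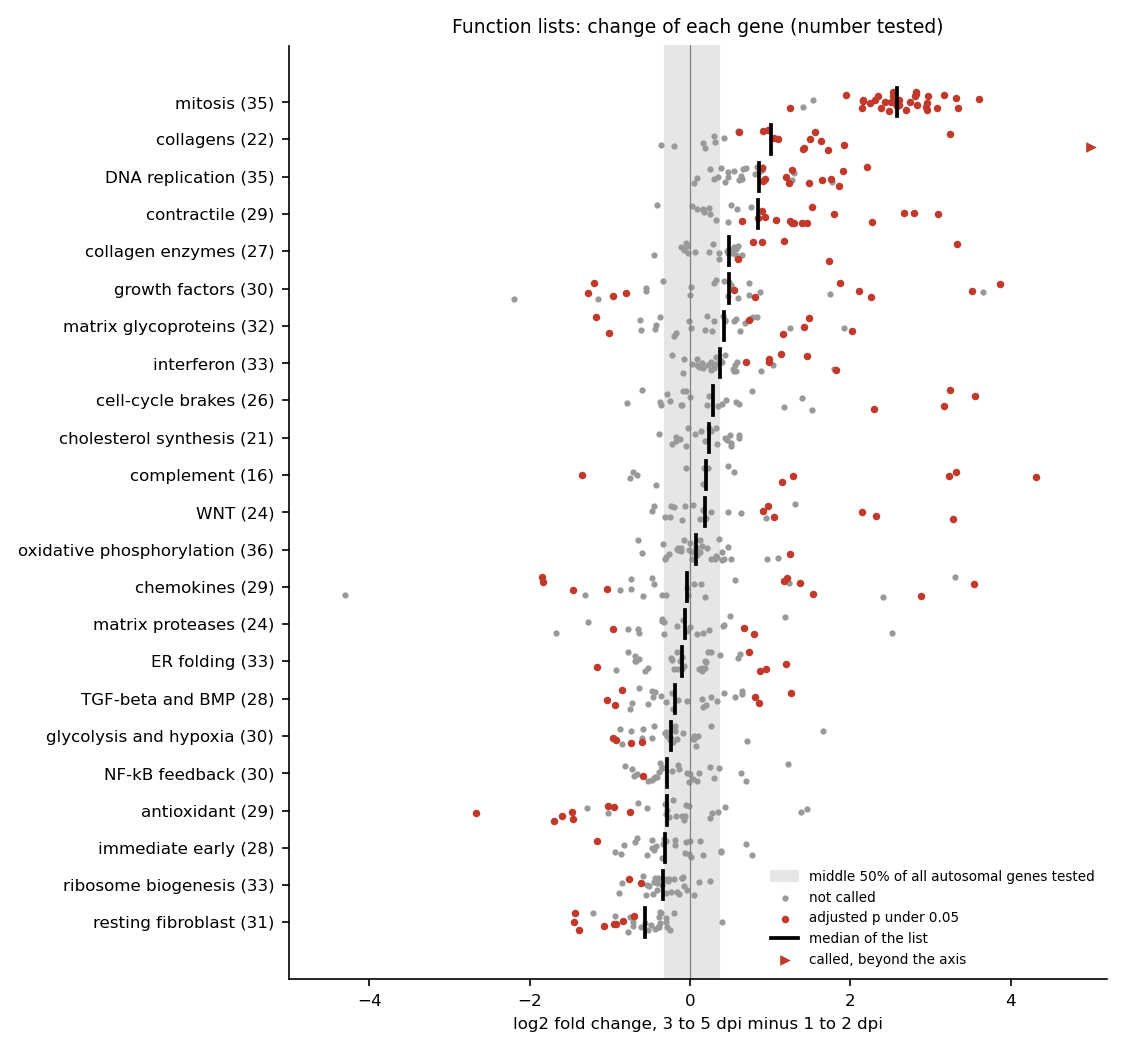
Log2 fold change of the window against 1 to 2 dpi (x axis) for each gene of 23 function lists (y axis, number tested in brackets), with called genes in red, the others in grey, the list's median as a black bar and the middle of all autosomal genes shaded. Mitosis stands furthest to the right with a median of 2.58 and resting fibroblast genes furthest to the left with -0.56; the arrow is *Col24a1*, beyond the axis.

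Mitosis genes rose almost without exception. Of 35 tested, 33 rose, against 5.24% of all autosomal genes, and none fell, and the median log2 fold change was 2.58 against 0.0014 over all autosomal genes. The 2 that did not pass were the checkpoint kinase *Ttk* (1.42 ± 0.64 SE) and the kinetochore protein *Knl1* (1.53 ± 0.70 SE). *Ube2c*, the ubiquitin-conjugating enzyme that works with the anaphase-promoting complex (chromosome 2, 164769898 to 164778822), was at 2.05, 7.56 and 15.4 CPM (lowest, median and highest) in the early libraries and at 30.9, 51.7 and 106 CPM in the window. Every window library lay above every early one, a 10.0-fold difference (log2 3.32 ± 0.23 SE, adjusted p = 3.25e-08). *Ccnb1*, which encodes the mitotic cyclin B1 (chromosome 13, 100778650 to 100786570), went from 0, 2.35 and 6.85 CPM to 10.3, 12.9 and 18.2 CPM, again without overlap (log2 3.34 ± 0.39 SE, adjusted p = 1.39e-05). Exons of *Ube2c* overlap *Tnnc2*, a muscle gene, and their reads may be split.

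Mitosis genes also differed between the early days. Between 2 and 1 dpi, 13 of the 35 passed, against 24 of all autosomal genes, and the median log2 fold change of the list was 2.23. *Ccnb1* was higher at 2 than at 1 dpi by 3.90 and *Ube2c* by 2.16 (adjusted p = 0.00349 for each, edgeR). Set against 2 dpi alone, 14 mitosis genes rose in the window and the median was 1.57, and *Ccnb1* was at 1.39 with an adjusted p of 0.0989. Set against 1 dpi alone, 31 rose, with a median of 3.66. At 4 against 3 dpi none rose and 1, the checkpoint gene *Mad2l1*, fell. Against 6 dpi, 20 were higher in the window, where 11.6% of all autosomal genes differed. The mean level of the list, at least 3.12 log2 CPM in each window library, was at most 3.08 in any other.

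The cell cycle homology region (CHR), with the letters TTTGAA, is an element known from promoters of mitotic genes, which a repressor complex occupies in resting cells. It was searched on both strands in RefSeq promoters (GRCm38.p6, from 250 bases before to 50 after the start). A promoter was matched for 504 of the 661 genes of the function lists tested. Of 30 mitosis genes with a promoter, 22 held it (73.3%), against 14.3% of 10327 autosomal genes tested. Of the 28 that rose and had a promoter, 20 held it. The list was made of known cell cycle genes, so the share describes that choice, and a match is a string of letters and no measured site. The 60 bases below are shown for 4 risen genes with the element upstream of the start, with the element in capitals, which reads TTCAAA where it lies on the other strand.
Ube2c (chr2:164769869-164769928, plus strand): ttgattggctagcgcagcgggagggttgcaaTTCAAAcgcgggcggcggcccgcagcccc
Ect2 (chr3:27153959-27154018, minus strand): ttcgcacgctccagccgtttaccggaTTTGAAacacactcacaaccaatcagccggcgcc
Kif2c (chr4:117178842-117178901, minus strand): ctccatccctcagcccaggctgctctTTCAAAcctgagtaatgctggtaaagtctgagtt
Mki67 (chr7:135716444-135716503, minus strand): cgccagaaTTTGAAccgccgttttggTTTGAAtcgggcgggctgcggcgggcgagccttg
*Ect2*, an exchange factor for the cleavage furrow, rose by 3.17, *Kif2c*, a motor that takes microtubules apart, by 2.96, and *Mki67*, a coat protein of mitotic chromosomes used as a proliferation marker, by 2.94 on the log2 scale.

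Of 35 DNA replication genes tested, 12 rose, 23 did not pass and none fell, where 5.24% of all autosomal genes rose. The median log2 fold change was 0.86, and all 35 values were positive. *Rrm2*, the limiting subunit of the enzyme that makes deoxyribonucleotides (chromosome 12, 24708241 to 24714146), was at 0.506, 3.21 and 7.44 CPM early and at 3.74, 15.4 and 25.1 CPM in the window, with overlap in 1 window library of 4 dpi (log2 2.20 ± 0.45 SE, adjusted p = 0.00394, edgeR). *Tk1*, the thymidine kinase of S phase, went from 0.886, 15.2 and 23.8 CPM to 19.7, 39.9 and 130 CPM (log2 1.90 ± 0.39 SE, adjusted p = 0.00359), and its exons overlap *Afmid*. Other genes of nucleotide supply passed as well, *Tyms* at 1.48 and *Rrm1* at 1.27. Of the helicase subunits, *Mcm6* passed at 0.91, and the sliding clamp *Pcna* did not, at 0.44 ± 0.29 (SE).

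Between 2 and 1 dpi no replication gene passed, and the median was -0.05. At 4 against 3 dpi 1, *Pcna*, fell and none rose. Against 6 dpi 16 were higher in the window, where 11.6% of all autosomal genes differed. The number of members called was 1 against 2 dpi alone, 6 against 1 dpi alone, 6 without the 3 dpi libraries and 7 without 2 dpi replicate 2. Against 2 dpi alone, *Rrm2* was at 1.47 (adjusted p = 0.198) and *Tk1* at 1.07 (adjusted p = 0.287). The E2F letters TTTCCCGC were in 6 of 30 promoters (20%, against 2.27% of all), and 1 of them, *Gins3*, is among the 10 risen genes with a promoter; the second form TTTGGCGC was in 4 (13.3% against 1.04%).

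The largest rises outside the lists were of histones, which package the new DNA. *Hist1h2af*, *Hist1h2ao*, *Hist1h2ap* and *Hist1h2ak* encode nearly identical H2A proteins on chromosome 13 and can share reads, so they are described as 1 family. Their log2 fold changes were 3.79 to 3.92 without overlap between window and early libraries, and their adjusted p-values were at most 1.66e-05 (edgeR). *Hist1h2ao* was at 15.4, 51.0 and 148 CPM early and at 160, 682 and 3045 CPM in the window, where the highest value is 3 dpi replicate 2. Replication-dependent histone messages normally lack a poly-A tail, which the method selects for. The remaining gene of this rule, *Kif26b*, an atypical kinesin, went from 0.127, 2.27 and 4.62 CPM to 16.1, 27.7 and 49.3 CPM (log2 3.80 ± 0.33 SE, adjusted p = 3.88e-07).

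Among regulators of entry into and exit from the cycle, 4 of 26 rose and none fell, with a median of 0.29. The 4 were *Ccne1*, the cyclin of the step into S phase (2.29), the E2F repressors *E2f7* (3.25) and *E2f8* (3.17), and *Cdkn2a*, which encodes the brakes p16 and ARF (3.56). All 4 had low levels, and *Cdkn2a* was at 0.214, 2.13 and 4.89 CPM in the window, where most early libraries were under the floor. *Cdkn1a*, the p53 target p21, was at 406, 589 and 983 CPM early and at 298, 360 and 618 CPM in the window (-0.78 ± 0.25 SE, adjusted p = 0.0616), and *E2f3*, an activator of S phase genes, was at 0.57 ± 0.21 (SE, adjusted p = 0.118). With only genes of at least 10 counts in every library, 0 of the members left passed. That filter removes genes of low level, *Cdkn2a* among them, so it is no second test of those.

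**Figure D3:**
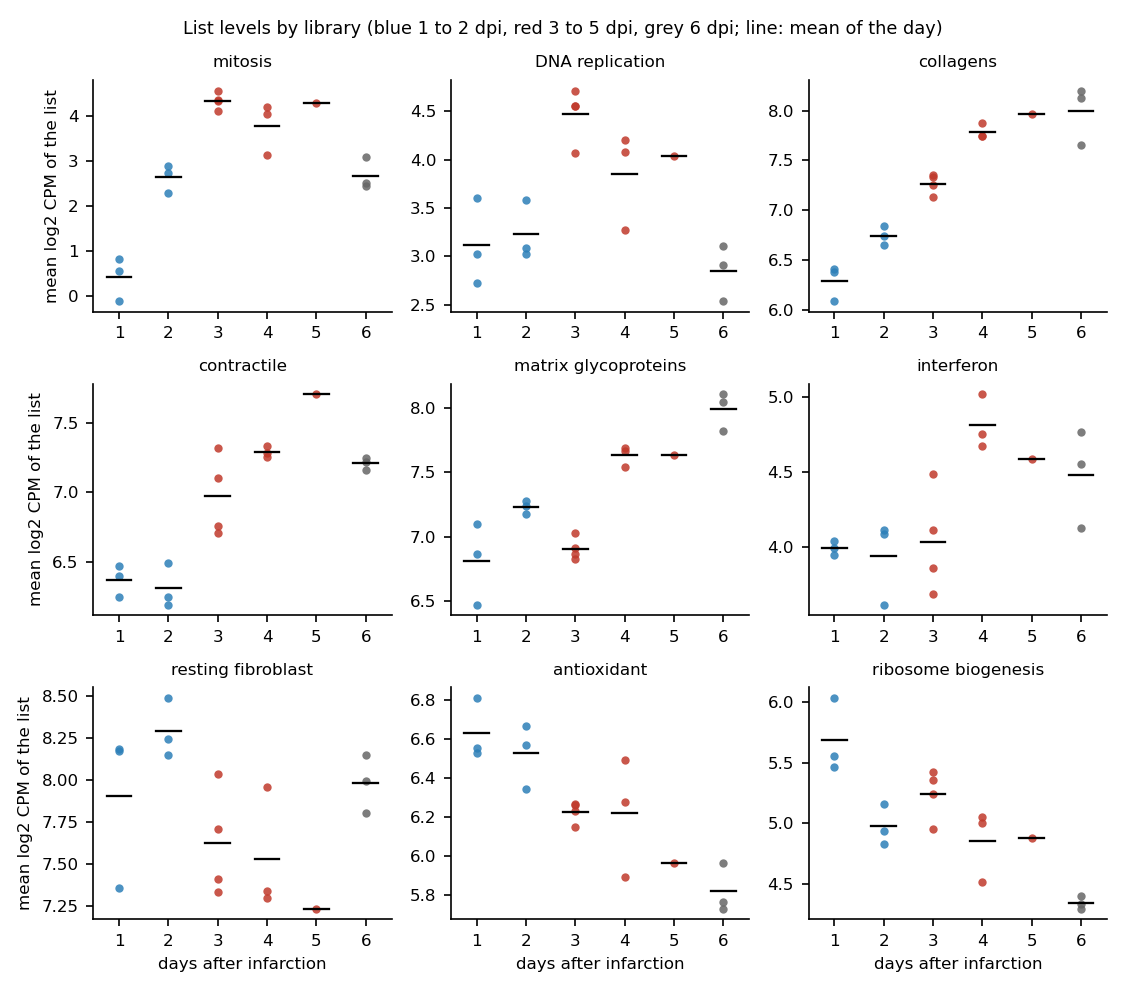
Mean log2 CPM of the genes of 9 function lists in each library by day after infarction, with blue points for 1 to 2 dpi, red for 3 to 5 dpi, grey for 6 dpi and a line at the mean of each day. The mitosis list stood between 3.12 and 4.56 in the window and at most at 2.88 early, collagens between 7.13 and 7.96 in the window and at most at 6.84 early, and the day means of the antioxidant list went from 6.63 at 1 dpi to 5.82 at 6 dpi.

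Of 22 collagens tested, 14 rose, against 5.24% of all autosomal genes, and none fell, with a median log2 fold change of 1.01. For 7 the window libraries lay entirely above the early ones, against 1.68% of all. *Col1a1*, a chain of type I collagen and the gene whose promoter drives the sorting reporter (chromosome 11, 94936224 to 94953042), was at 1604, 2492 and 3730 CPM early and at 4806, 7166 and 16777 CPM in the window (log2 1.64 ± 0.27 SE, adjusted p = 6.14e-04). The highest value is 3 dpi replicate 2, without which the difference was 1.44. Its partner *Col1a2* rose by 1.56 and *Col3a1*, of the looser early scar, by 1.41. *Col14a1*, which associates with fibril surfaces (chromosome 15, 55307750 to 55520803), went from 47.4, 82.3 and 103 CPM to 168, 225 and 409 CPM without overlap (log2 1.72 ± 0.23 SE, adjusted p = 5.32e-05).

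Of other fibril-forming collagens, *Col11a1* rose by 3.24, and *Col24a1* was not counted in any early library and was at 0.52, 3.41 and 6.25 CPM in the window. Against 3 counts over the 6 early libraries, its window level was at least 145-fold higher, and with that bound the median of the list was again 1.01. The basement membrane chains *Col4a1* and *Col4a2* and the beaded chains *Col6a1*, *Col6a2* and *Col6a3* did not pass. Against 2 dpi alone 6 collagens rose, and *Col1a1* was at 1.21 (adjusted p = 0.0694). Without the 3 window libraries above 100 CPM of leukocyte markers, the 5 dpi library among them, 9 collagens rose.

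Of 27 enzymes and chaperones that mature collagen, 6 rose and none fell, with a median of 0.48. *P4ha3*, a subunit of the prolyl hydroxylase that stabilizes the triple helix (chromosome 7, 100285520 to 100319699), was at 0.76, 5.60 and 8.49 CPM early and at 15.8, 47.3 and 67.7 CPM in the window, a 10.0-fold difference without overlap (log2 3.33 ± 0.29 SE, adjusted p = 4.15e-07). The cross-linking oxidases *Loxl2* (1.74 ± 0.23 SE, adjusted p = 4.71e-05) and *Loxl3* (1.17) and the procollagen peptidase *Adamts2* (0.78) rose as well. *Loxl2* was at 48.4, 80.2 and 111 CPM early and at 100, 228 and 352 CPM in the window, where 1 library overlapped the early range, and its exons overlap *Gm27177*. Of this list 10 genes rose without 3 dpi replicate 2, 2 against 2 dpi alone and 3 when only libraries of the Y-linked pattern were fitted.

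The other matrix proteins were mixed. Of 32 glycoproteins and proteoglycans, 5 rose and 2 fell, with a median of 0.42. *Thbs4*, a thrombospondin of tendon and stressed heart (chromosome 13, 92751590 to 92794818), was at 22.4, 41.6 and 90.8 CPM early and at 60.3, 138 and 466 CPM in the window (log2 2.02 ± 0.26 SE, adjusted p = 3.83e-05), and the 3 dpi libraries, from 60.3 to 97.6 CPM, overlapped the early ones. *Fmod*, fibromodulin, which guides fibril assembly (chromosome 1, 134037254 to 134048277), followed the same course, at 4.43 to 10.6 CPM at 3 dpi, 31.7 to 62.1 CPM at 4 dpi and 73.8 CPM at 5 dpi (log2 1.48 ± 0.29 SE, adjusted p = 0.00221). At 6 dpi it was at 230 to 312 CPM, above the whole window. *Ltbp2* (1.42) and *Fbn2* (1.16), of the microfibrils that hold latent TGF-beta, and *Sparc* (0.73), which binds collagen, rose, while the hyaluronan synthase *Has1* (-1.17) and lumican, *Lum* (-1.01), fell.

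Between the days of the window more members passed than in any other function list. Of the 32, 8 were higher at 4 than at 3 dpi and none lower, with a median of 0.72. Over all autosomal genes 2.64% differed between these days. Against 6 dpi, 14 of the 32 were lower in the window and 4 higher, where 11.6% of all autosomal genes differed. Without 2 dpi replicate 2, 4 of the list rose and 0 fell. The call of *Fmod* did not pass without the 5 dpi library (0.77, adjusted p = 0.112), and without the 3 libraries above 100 CPM of leukocyte markers it was at 0.55 (adjusted p = 0.307). The difference between 4 and 3 dpi cannot be told apart from the sex-linked pattern of the libraries.

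Matrix proteases and their inhibitors had 2 of 24 risen, 1 fallen and a median of -0.06, shares near those over all genes, of which 5.24% rose and 2.16% fell. The membrane protease *Mmp14* (0.67) and *Mmp23* rose, the latter from 57.5, 123 and 177 CPM to 110, 209 and 314 CPM (0.80 ± 0.21 SE, adjusted p = 0.0223, edgeR). *Plaur*, the urokinase receptor, fell from 33.1, 69.0 and 116 CPM to 23.7, 35.8 and 62.3 CPM (-0.96 ± 0.25 SE, adjusted p = 0.0205). The groups overlap for both. The call of *Mmp23* was lost without 1 dpi replicate 1 or 2 dpi replicate 1, and that of *Plaur* without 1 dpi replicate 2 or 2 dpi replicate 1. The number fallen was 2 without 1 dpi replicate 1 and 3 without 3 dpi replicate 2.

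Many contractile and cytoskeletal genes of the myofibroblast rose. Of 29 tested, 16 rose, against 5.24% of all autosomal genes, and none fell, with a median of 0.85. For 9 the window libraries lay entirely above the early ones, against 1.68% of all. *Palld*, palladin, a scaffold of stress fibres (chromosome 8, 61511433 to 61902690), was at 6.33, 15.2 and 30.5 CPM early and at 50.3, 90.4 and 191 CPM in the window (log2 2.79 ± 0.27 SE, adjusted p = 1.94e-06). *Actg2*, smooth muscle gamma-actin (chromosome 6, 83512905 to 83536265), went from 1.38, 2.89 and 4.16 CPM to 5.06, 19.3 and 58.0 CPM (log2 3.10 ± 0.32 SE, adjusted p = 3.23e-06). Both were highest in the 5 dpi library. *Acta2*, the smooth muscle alpha-actin that defines the myofibroblast, rose by 2.66, from at most 225 CPM in any early library to at least 517 CPM in any window library.

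The calponin *Cnn1* (2.27), transgelin *Tagln* (1.8), the light chain *Myl9* (1.52) and the tropomyosins *Tpm1* (1.39) and *Tpm2* (1.30) moved with them, whereas the non-muscle myosin chain *Myh9* and the adhesion proteins *Zyx* and *Vcl* did not pass. The list's count was 13 against 2 dpi alone and between 15 and 16 with any 1 library left out. Mural cells carry many of these proteins, and their own markers *Notch3* (1.08), *Rgs5* (1.89) and *Cspg4* (2.07) rose beside them; their part in the contractile genes was not tested.

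The CArG box, to which serum response factor binds, was looked for after these values were seen, and its letters were in 4 of 25 contractile promoters (16%) against 1.58% of all. Those of the light chain and of the calponin *Cnn2* (1.27), the 2 that rose, are shown with the box in capitals.
Myl9 (chr2:156775277-156775336, plus strand): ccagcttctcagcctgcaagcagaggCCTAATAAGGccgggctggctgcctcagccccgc
Cnn2 (chr10:79988518-79988577, plus strand): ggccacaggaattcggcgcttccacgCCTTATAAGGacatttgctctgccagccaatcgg
The box was 161 bases before the start of *Myl9* and 56 before that of *Cnn2*, and *Vcl* and *Myl6*, which held it too, did not pass.

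Genes of TGF-beta and BMP signalling, the main inducers of myofibroblasts and their relatives, moved in both directions. Of 28 tested, 3 rose and 3 fell, with a median of -0.18. Of the ligands, *Tgfb3* rose (1.26 ± 0.16 SE, adjusted p = 2.62e-05), from 34.7, 45.7 and 58.1 CPM to 46.3, 89.1 and 205 CPM, where the 3 dpi libraries overlapped the early ones. *Tgfb1* (-0.53 ± 0.37 SE) and *Tgfb2* did not pass, and *Inhba*, the activin subunit, fell by 0.93 on the log2 scale. Of the receptors, *Tgfbr3*, the co-receptor betaglycan, fell from 101, 126 and 168 CPM to 49.9, 57.9 and 106 CPM (-1.03 ± 0.19 SE, adjusted p = 0.00175, edgeR). Its call was at an adjusted p of 0.0644 when only libraries of the Y-linked pattern were fitted. Among the intracellular members, *Smad3*, which carries the TGF-beta signal, fell by 0.85 on the log2 scale, and the inhibitory *Smad6* rose by 0.86 without overlap. The matricellular target *Ccn1* rose by 0.81 without overlap. Without 3 dpi replicate 2, 5 of the list rose and 6 fell.

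Of 24 genes of the WNT pathway tested, 6 rose, 18 did not pass and none fell, with a median of 0.19, where 5.24% of all autosomal genes rose. *Sfrp2*, a secreted relative of the WNT receptors (chromosome 3, 83766321 to 83774316), was at 23.8, 32.9 and 56.7 CPM early and at 106, 153 and 217 CPM in the window (log2 2.32 ± 0.20 SE, adjusted p = 3.88e-07). *Ccn4*, a WNT-induced matricellular protein (chromosome 15, 66891320 to 66923201), went from 8.80, 13.8 and 23.6 CPM to 35.2, 47.4 and 109 CPM (log2 2.15 ± 0.28 SE, adjusted p = 5.32e-05). Neither overlapped. *Dkk2* (3.28), *Sfrp1* (0.97), *Nkd2* (0.91) and *Ccn5* (1.05) rose too, and no WNT ligand passed. Against 2 dpi alone, 2 rose. Exons of *Sfrp2* overlap *Gm26771*.

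Growth factors and imprinted growth genes split in direction, with 7 of 30 risen, 4 fallen and a median of 0.48. *H19*, an imprinted long non-coding RNA of fetal tissues (chromosome 7, 142575529 to 142578143), was at 2.41, 4.81 and 13.5 CPM early and at 17.7, 107 and 157 CPM in the window, a 14.5-fold difference without overlap (log2 3.86 ± 0.42 SE, adjusted p = 6.52e-06). *Mest*, another imprinted gene (chromosome 6, 30723547 to 30748465), went from 5.90, 7.46 and 15.3 CPM to 9.58, 18.7 and 86.5 CPM, with its 3 dpi libraries inside the early range (log2 1.87 ± 0.25 SE, adjusted p = 4.71e-05). Its exons overlap *Copg2*. The imprinted *Grb10* (0.54) and *Igf2r* (0.81), both brakes on growth factor signals, rose, and *Peg3* (-0.80) fell.

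Of the secreted factors, the neuregulin *Nrg1* (3.52), *Hgf* (2.10) and *Pdgfc* (2.26) rose from low levels, and *Fgf2* (-1.27) fell. The number that fell was 1 without 1 dpi replicate 3 or 2 dpi replicate 2 and 2 without 1 dpi replicate 2, 4 dpi replicate 1 or 4 dpi replicate 2, and the number that rose was 4 without 2 dpi replicate 2 or 4 dpi replicate 1. *Igf1*, the insulin-like growth factor, was at -0.55 ± 0.18 (SE) and did not pass.

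**Figure D4:**
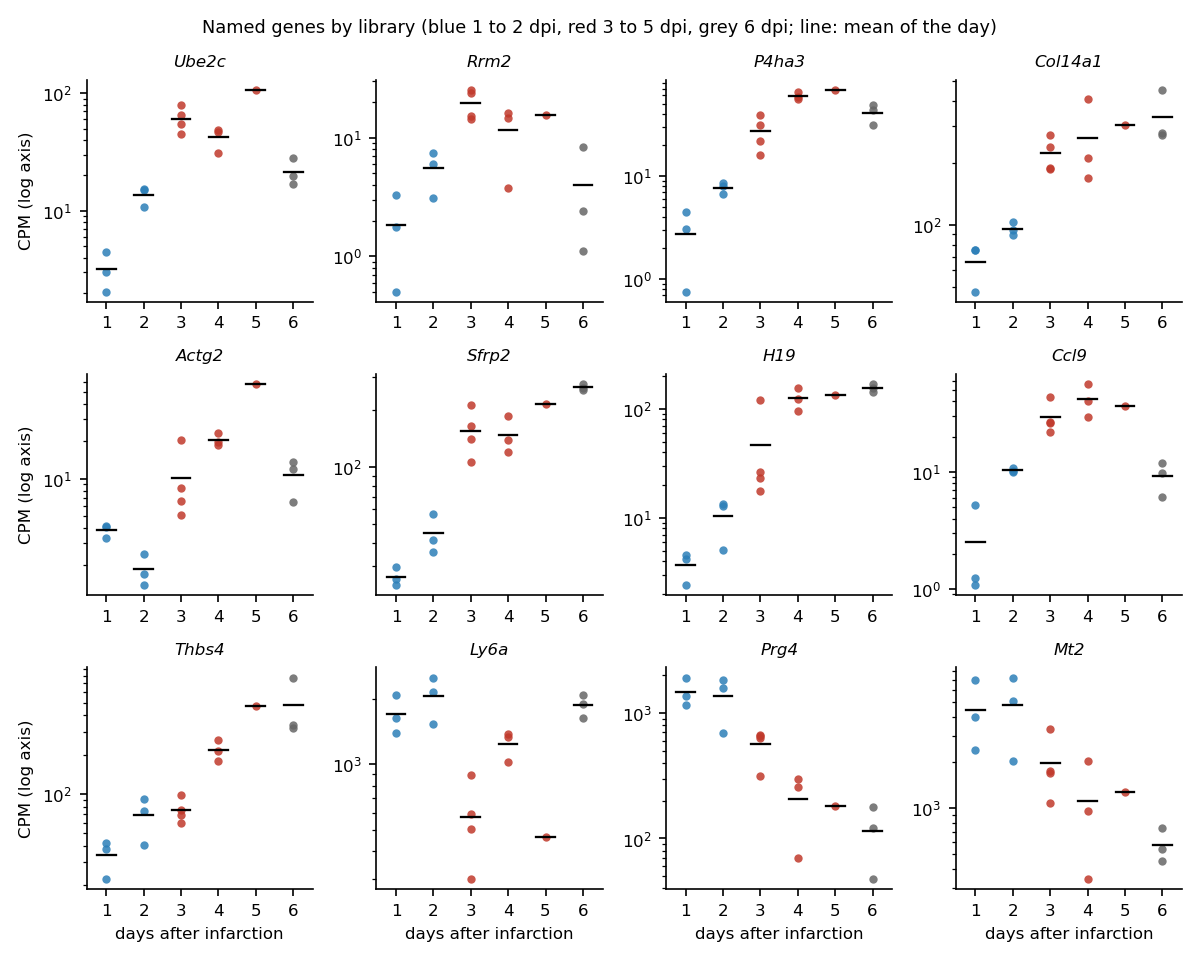
CPM (log axis) of 12 named genes in each library by day after infarction, with blue points for 1 to 2 dpi, red for 3 to 5 dpi, grey for 6 dpi and a line at the mean of each day. *Ube2c* and *Ccl9* were lower again at 6 dpi, at 19.7 and 9.72 CPM in the median, *Thbs4* was at 337 CPM and *H19* at 156 CPM there, and *Prg4* and *Mt2* were at 121 and 538 CPM.

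Inflammatory genes moved in both directions. Of 29 chemokines and cytokines tested, 6 rose and 4 fell, with a median of -0.04. *Ccl9*, a chemokine for myeloid cells (chromosome 11, 83572919 to 83578636), was at 1.08, 7.60 and 10.9 CPM early and at 22.1, 33.2 and 56.6 CPM in the window, without overlap (log2 2.88 ± 0.33 SE, adjusted p = 1.07e-05). *Cxcl12* (1.21), the membrane-bound *Cx3cl1* (1.37), the acute-phase *Saa3* (1.54) and the interferon-induced *Cxcl10* (1.17) and *Cxcl9* (3.54) rose with it. *Lcn2*, lipocalin 2, which withholds iron from bacteria, fell from 24.0, 81.5 and 109 CPM to 3.95, 13.9 and 51.2 CPM (-1.84 ± 0.49 SE, adjusted p = 0.0223, edgeR), and *Ccl19* (-1.83), *Il11* (-1.46) and *Cxcl14* (-1.04) fell too. The call of *Lcn2* was lost without 2 dpi replicate 2.

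The neutrophil and monocyte chemokines *Cxcl1* (-0.35 ± 0.30 SE) and *Ccl2* (-0.74 ± 0.32 SE) and the cytokine *Il6* (0.13 ± 0.51 SE) did not pass. The number fallen was 2 without 2 dpi replicate 2 and 1 without the 3 libraries above 100 CPM of leukocyte markers. The NF-kB letters GGGANNTTC, where N is any base, were in 6 of 22 promoters (27.3%) against 4.28% of all, and 2 of those 6 genes, *Cxcl9* and *Cxcl10*, are among the 10 called.

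The NF-kB feedback list holds inhibitors of the factor such as *Nfkbia* and other targets such as *Sod2*. Of its 30 genes tested none rose and 1 fell, with a median of -0.28, where 2.16% of all autosomal genes fell. The 1 was *Sod2*, the mitochondrial superoxide dismutase, at 110, 163 and 261 CPM early and at 93.8, 117 and 150 CPM in the window (-0.58 ± 0.17 SE, adjusted p = 0.0347, edgeR). *Nfkbia*, the cytoplasmic inhibitor of NF-kB, was at 327, 542 and 695 CPM and at 206, 331 and 638 CPM (-0.66 ± 0.22 SE, adjusted p = 0.0710). The call of *Sod2* was lost without 1 dpi replicate 1, 2 dpi replicate 1 or 2, or 4 dpi replicate 2, and the number fallen was 6 without 3 dpi replicate 2 and 3 without 6 dpi replicate 3.

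Immediate early genes, which stress and tissue digestion switch on within minutes, had none of 28 risen, 1 fallen and a median of -0.31. *Hspa1a*, an inducible heat shock protein, fell from 125, 236 and 456 CPM to 62.9, 149 and 215 CPM (-1.15 ± 0.33 SE, adjusted p = 0.0355, edgeR). It has a near-identical neighbour, *Hspa1b*, and shares exons with *Gm20481*. *Klf4*, a transcription factor of quiescence, was at 1082, 1257 and 1484 CPM early and at 346, 906 and 2074 CPM in the window (-0.82 ± 0.26 SE, adjusted p = 0.0549), and *Fos* at -0.0012 ± 0.21 (SE). The call of *Hspa1a* was lost without 1 dpi replicate 2 or 3, 2 dpi replicate 3, or 4 dpi replicate 1 or 2, and the number fallen was 6 without 3 dpi replicate 2 and 3 without 4 dpi replicate 3.

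Of 33 interferon-stimulated genes tested, 6 rose and none fell, the median was 0.38, and 30 values were positive. *Oas1a*, a sensor of double-stranded RNA (chromosome 5, 120896256 to 120907521), was at 10.5, 15.5 and 16.8 CPM early and at 17.8, 31.8 and 45.3 CPM in the window without overlap (log2 1.13 ± 0.22 SE, adjusted p = 0.00233). Its relative *Oasl1* was at 1.44, 3.44 and 6.80 CPM and at 2.88, 10.2 and 21.2 CPM (log2 1.45 ± 0.43 SE, adjusted p = 0.0414, edgeR), and shares exons with *Gm13822*. *Isg15* (0.99), a ubiquitin-like modifier, *Ifi44* (1.82) and *Ifit3b* (0.98) rose as well.

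The count varied with the libraries. The number risen was 10 without 3 dpi replicate 2, 3 without 1 dpi replicate 2, 3 without the 5 dpi library, 2 without the 4 dpi libraries, 1 when only libraries of the Y-linked pattern were fitted, and 1 without the 3 libraries above 100 CPM of leukocyte markers. *Oasl1* was not called without 1 dpi replicate 2 or 3, 2 dpi replicate 2 or 3, 3 dpi replicate 4, 4 dpi replicate 1 or 2, or 6 dpi replicate 1. At 4 against 3 dpi, 4 of the list rose, where 2.64% of all autosomal genes differed.

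The interferon-stimulated response element (ISRE), of which the letters GAAANNGAA were searched on both strands, was in 16 of 27 interferon promoters (59.3%) against 8.61% of all, and 4 of the 5 risen genes with a promoter held it. The 60 bases of 3 of them are shown because they are risen genes with the letters upstream of the start, some of them overlapping, with the matches in capitals.
Oas1a (chr5:120907526-120907585, minus strand): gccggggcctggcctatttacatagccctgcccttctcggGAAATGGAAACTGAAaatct
Isg15 (chr4:156200851-156200910, minus strand): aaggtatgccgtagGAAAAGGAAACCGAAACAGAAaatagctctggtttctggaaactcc
Ifit3b (chr19:34607797-34607856, plus strand): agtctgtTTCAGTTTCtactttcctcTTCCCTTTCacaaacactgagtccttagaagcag
The promoter of *Oas1a* held 2 overlapping matches and those of *Isg15* and *Ifit3b* 3 each in the whole stretch. The 12 other genes with the letters did not pass the test.

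Of 16 complement genes tested, 5 rose and 1 fell, with a median of 0.20. Of the risen, *C1qa*, *C1qb* and *C1qc* encode the recognition molecule C1q and are also counted above among leukocyte markers. *C1qb* was at 0.404, 0.918 and 3.77 CPM early and at 0.242, 8.83 and 44.2 CPM in the window, with its highest values in 3 dpi replicates 3 and 4 and its lowest in 3 dpi replicate 2 (log2 3.31 ± 0.70 SE, adjusted p = 0.00461). Without the 3 window libraries above 100 CPM of leukocyte markers, the 5 dpi library among them, *C1qb* was at 2.11 (adjusted p = 0.0667). In that fit 2 of the list rose, against 3 without 2 dpi replicate 3. *Clu* (1.28), a chaperone that blocks the terminal complex, and *C1qtnf6* (1.14) rose too.

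*Gm4788*, a predicted gene on chromosome 1, was among the 5 largest falls outside the lists (-2.63 ± 0.33 SE, adjusted p = 2.65e-05), from 12.3, 18.9 and 24.8 CPM early to 1.06, 3.60 and 11.2 CPM in the window, without overlap.

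Of 31 genes of resting fibroblasts tested, none rose, 8 fell and 23 did not pass, where 2.16% of all autosomal genes fell. The median was -0.56, and 1 value was positive. *Ly6a*, the surface protein Sca-1 of fibroblast progenitors (chromosome 15, 74994877 to 74998031), was at 1393, 1849 and 2497 CPM early and at 299, 742 and 1371 CPM in the window, without overlap (-1.43 ± 0.25 SE, adjusted p = 9.57e-04). Its neighbour *Ly6c1* went from 220, 419 and 605 CPM to 67.5, 156 and 354 CPM (-1.45 ± 0.29 SE, adjusted p = 0.00318) and was higher at 4 than at 3 dpi by 1.35 (adjusted p = 0.0457). Genes of this cluster are alike and may share reads. At 6 dpi *Ly6a* was at 1634 to 2087 CPM, inside the early range.

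The receptor *Pdgfra*, which marks cardiac fibroblasts, fell by 0.84 on the log2 scale without overlap, *Pi16*, of the universal fibroblast reservoir, by 0.92, and *Igfbp3*, *Htra3*, *Dpep1* and *Ebf2* by 0.70 to 1.38. The lineage factor *Tcf21* did not pass. The number of the list fallen was 5 without 1 dpi replicate 3, 2 dpi replicate 2 or 4 dpi replicate 1, and 4 against 1 dpi alone.

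The 5 largest falls outside the lists, *Gm4788* among them, had no overlap between the groups. *Prg4*, the lubricant lubricin (chromosome 1, 150449412 to 150466165), was at 688, 1464 and 1910 CPM early and at 69.7, 306 and 667 CPM in the window (-2.36 ± 0.40 SE, adjusted p = 8.11e-04). *Ahsg* and *Fetub*, the paired fetuins A and B, which lie side by side on chromosome 16 and are best known from liver, fell by 2.79 and 2.15, from at least 35.5 and 33.7 CPM in the early libraries to at most 33.8 and 30.1 CPM in the window. *5830416I19Rik*, a gene with no name beyond its clone, had the largest fitted fall, -4.98 ± 0.99 (SE, adjusted p = 0.00293), and this value is set by the 5 dpi library, where it had no count. Without that library it was -2.06 (adjusted p = 0.0212). At 3 dpi the gene was at 5.88 CPM in replicate 2 and at 0.0743 to 0.426 CPM in the other replicates. At 4 dpi it was at 6.87 to 9.35 CPM, near the lowest early library, at 9.64 CPM.

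Of 29 antioxidant and metal-binding genes tested, none rose, 8 fell and 21 did not pass, with a median of -0.29, where 2.16% of all autosomal genes fell. *Mt2*, a metallothionein (chromosome 8, 94172664 to 94173568), was at 2034, 4507 and 7218 CPM early and at 343, 1495 and 3322 CPM in the window with overlap (-1.70 ± 0.42 SE, adjusted p = 0.0157, edgeR), and *Mt1* fell by 1.47. *Hmox1*, the heme oxygenase, fell by 1.45, and the glutathione genes *Gclc* (-1.02), *Gstm1* (-0.94) and *Srxn1* (-0.74) and the cystine carrier *Slc7a11* (-2.67) fell too. Ferritins *Fth1* and *Ftl1* did not pass.

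*Prdx1*, a peroxiredoxin, differed between the days of the window. It was at 114 to 529 CPM early, at 31.2 to 58.9 CPM at 3 dpi, at 137 to 598 CPM at 4 dpi and at 40.5 CPM at 5 dpi, so that the window value of -1.60 ± 0.39 (SE, adjusted p = 0.0146, edgeR) joins days of unlike level. The 4 dpi libraries were higher than those of 3 dpi by 3.16 (adjusted p = 0.00175), which cannot be told apart from the sex-linked pattern. Without the 5 dpi library the difference was -1.04 (adjusted p = 0.0897) and with libraries weighted equally -0.69 (adjusted p = 0.561). Without the 4 dpi libraries, 3 of the list fell, and 5 without 1 dpi replicate 3 or without 2 dpi replicate 1.

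Of 33 genes of ribosome biogenesis, the nucleolar work of making ribosomes, none rose, 2 fell and 31 did not pass, where 2.16% of all autosomal genes fell. The median was -0.33, and 30 values were negative. *Nop2*, an rRNA methyltransferase, was at 22.6, 38.5 and 50.4 CPM early and at 15.5, 23.7 and 29.9 CPM in the window (-0.75 ± 0.20 SE, adjusted p = 0.0222, edgeR). *Nop14*, of the small subunit processome, was at -0.60 ± 0.18 (SE, adjusted p = 0.0452), a call lost in 10 of the 16 fits without 1 library (1 dpi replicate 1 or 3, 2 dpi replicate 2 or 3, 3 dpi replicate 1 or 3, 4 dpi replicate 1 or 3, and 6 dpi replicate 1 or 2). The number fallen was 6 against 1 dpi alone and 0 against 2 dpi alone, where the median was 0.03. It was 4 without 3 dpi replicate 2 and 4 without 6 dpi replicate 3.

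Of 30 genes of glycolysis and the hypoxia response, none rose and 4 fell, with a median of -0.24. *Adm*, adrenomedullin, a vasodilator peptide induced by low oxygen, was at 27.9, 39.9 and 50.3 CPM early and at 15.3, 18.6 and 47.0 CPM in the window (-0.96 ± 0.28 SE, adjusted p = 0.0418, edgeR). *Ero1l*, an oxidase of the endoplasmic reticulum (ER) induced by low oxygen, went from 15.9, 33.0 and 35.2 CPM to 10.6, 15.4 and 24.2 CPM (-0.92 ± 0.24 SE, adjusted p = 0.0218). The enzymes *Aldoa* (-0.74) and *Gpi1* (-0.60) fell, and *Gapdh*, *Ldha* and *Pkm* did not pass. The call of *Adm* was lost without 1 dpi replicate 2 or 3, any 2 dpi library, 3 dpi replicate 1 or 4, 4 dpi replicate 1 or 2, or 6 dpi replicate 1, and that of *Ero1l* without 2 dpi replicate 1. The list had 0 calls without 2 dpi replicate 1, 1 without 4 dpi replicate 2, and 2 without 1 dpi replicate 2 or 3 or 3 dpi replicate 4.

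Oxidative phosphorylation stood near the median of all genes, with 1 of 36 risen, none fallen and a median of 0.08. The 1 was *Ndufa4*, a subunit of cytochrome c oxidase, at 35.0, 47.0 and 53.7 CPM early and at 17.7, 86.5 and 186 CPM in the window (1.24 ± 0.36 SE, adjusted p = 0.0403, edgeR). Its call was lost without any 1 of the early libraries but 2 dpi replicate 3, and without 3 dpi replicate 1 or 4 dpi replicate 1 or 2. *Cox7a2*, of the same complex, was at 0.97 ± 0.36 (SE, adjusted p = 0.115). Without 4 dpi replicate 3, 3 of the list rose.

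Of 33 genes of ER folding and stress, 4 rose and 1 fell, with a median of -0.10. The disulfide isomerases *Pdia5* and *Pdia4* (0.88), the translocon subunit *Sec61b* (0.95) and the retrieval receptor *Kdelr3* (0.74) rose, *Pdia5* from 25.6, 31.0 and 35.9 CPM to 49.9, 67.8 and 84.1 CPM without overlap (1.2 ± 0.17 SE, adjusted p = 8.71e-05). *Ddit3*, the stress factor CHOP, fell from 55.2, 85 and 122 CPM to 24.4, 33.8 and 77.7 CPM (-1.16 ± 0.20 SE, adjusted p = 8.11e-04). It was higher at 4 than at 3 dpi by 1.2 (adjusted p = 0.0122), and its exons overlap *Mars*. The number fallen was 3 without 3 dpi replicate 2.

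The ER stress element (ERSE), CCAAT and CCACG with 9 bases between them, was in 7 of 28 promoters (25%) against 0.165% of all, and none of these 7 genes was called. The 2 with the largest difference are shown for the contrast with the risen genes, the element in capitals.
Hspa5 (chr2:34771999-34772058, plus strand): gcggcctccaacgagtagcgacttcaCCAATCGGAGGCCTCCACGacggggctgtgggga
Canx (chr11:50325785-50325844, minus strand): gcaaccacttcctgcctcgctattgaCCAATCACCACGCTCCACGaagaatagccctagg
*Hspa5*, the chaperone BiP, was at -0.68 (adjusted p = 0.256) and *Canx*, calnexin, at -0.63 (adjusted p = 0.174) in edgeR's test.

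No gene of cholesterol synthesis was called among 21 tested by edgeR, and the median was 0.24. An unadjusted p under 0.05 was reached by 2, DESeq2 called 1, and edgeR called 1 without 3 dpi replicate 2. The nearest were *Fdft1*, squalene synthase, at 9.51, 13 and 16.8 CPM early and at 13.9, 19.5 and 25.3 CPM in the window (0.61 ± 0.20 SE, adjusted p = 0.0647, edgeR), and *Hmgcs1*, which makes the precursor of mevalonate (0.44 ± 0.18 SE, adjusted p = 0.153).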

How the data were processed

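Bulk RNA-seq by MARS-seq was analysed for 17 libraries of sorted mouse CFs from 1 to 6 dpi. The authors demultiplexed reads with bcl2fastq, aligned them to mm10 with STAR, counted them per gene with featureCounts on an Ensembl GRCm38 annotation, and used DESeq2 for their own tests. The values deposited are raw counts per gene without normalization; collapsing of PCR duplicates is not given in the sources used here, and strand handling of the counting is not stated, so genes with overlapping exons are named as such.

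Counts of 31053 genes were read with pandas (2.3.3, Python 3.11.15) and tested in R (4.3.3). Genes reaching 10 counts in 3 or more of the libraries, 14030 in all, were fitted with edgeR (4.0.16) by the quasi-likelihood F-test, with TMM scaling and a factor for the day (6 levels) fitted over all 17 libraries. The contrast was the mean of 3, 4 and 5 dpi minus the mean of 1 and 2 dpi. The p-values were adjusted by Benjamini-Hochberg over all genes tested, with a threshold of 0.05, and a gene is called changed when it passes. The standard error (SE) is the log2 fold change over the square root of F. CPM are counts scaled to TMM-normalized library sizes, and mean levels of lists use a prior count of 2. A CPM compares libraries within a gene, and no level is compared between genes. For the bulk libraries the study's methods give 2 to 4 biological replicates per population. Individual mice are named for 3 and 5 dpi only, in the section on single-cell preparation. Which mice made each bulk library is not stated. The p-values measure the spread between libraries, part of which may be technical.

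The days compared, the 23 function lists and the cell type markers were chosen with earlier results of these data known, and no list was given a test of its own. For each list the text names the 2 members with the largest log2 fold change among those called with a mean of at least 100 counts over the 14 libraries, filled by the smallest p, and outside the lists the 5 largest rises and 5 largest falls among called genes without overlap. Some members of the lists, 1 of them within this rule, are not reported here. Other members are named to describe a list and were chosen after their values were seen. Positions are from GENCODE vM21 on GRCm38, and promoters from RefSeq on GRCm38.p6, searched for motifs chosen with the lists. 1 gene of the lists was not matched in the table.

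The alternatives were DESeq2's size factors, upper-quartile scaling, DESeq2 (1.42.0) in place of edgeR, 2 other filters on low counts and libraries weighted equally. Others were the replicate number as a block, only the libraries of 1 to 5 dpi, and the window without each of its days. Further ones were each early day alone, only libraries with Y-linked counts above *Xist*, and each library outside 5 dpi left out in turn. The test was checked on simulated counts. Figures were drawn with matplotlib (3.10.9).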

Additional observations from a re-analysis of the deposited data

Results flagged for a closer look

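The 56 genes picked by the naming rule given above, each list's mean level and the total counts were searched for a single library far from the others of its day. Genes named beyond that rule were not searched. Only the 4 libraries of 3 dpi allowed the search, and 7 of 88 items had such a library, where chance gives about 1 in 20, or 4.4. In 3 dpi replicate 2, *Col1a1* was at 14.03 log2 CPM against 12.23 to 12.53 in the other 3 libraries. In the same library the histone genes *Hist1h2ao* and *Hist1h2ap* were at 11.57 and 11.56 log2 CPM, against 9.39 to 9.46 and 9.39 to 9.45. In 3 dpi replicate 3, *Fmod* was at 3.42 log2 CPM against 2.19 to 2.39. The mean level of the NF-kB feedback list there was 5.55 log2 CPM against 5.73 to 5.77, and that of fibroblast markers 10.73 against 10.41 to 10.46. In 3 dpi replicate 4, *Prg4* was at 8.29 log2 CPM against 9.29 to 9.38. The causes were not tested.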

How the results depend on the processing

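No log2 fold change of the 56 genes picked by the naming rule changed sign in 1729 values over 31 alternatives: 1569 kept their side of the threshold, 141 lost it and 19 gained it. Other genes named in the text are not in this count. Of 713 list medians 681 moved by less than the spread within days. Fewer genes changed against 2 dpi alone (342, of which 222 higher and 120 lower) and without the 3 libraries above 100 CPM of leukocyte markers (633, 454 and 179). The number lower was 496 with DESeq2, which called 1486 in all, 472 with every gene of at least 1 count and 143 without the 3 dpi libraries. With 1 library of another day than 5 dpi left out, 748 to 1539 genes changed, 559 to 927 higher and 175 to 612 lower. The cause of these moves was not tested. Replicate numbers did not pair the libraries (mean correlation of deviations 0.011, from -0.108 to 0.2, in 30 pairs of equal number), and with the replicate block 840 genes changed. Medians moved as follows. With at least 10 counts in every library, which removes members of low level, the cycle regulators left were at -0.084 and the collagens left at 0.77. With libraries weighted equally, immediate early genes were at -0.12, proteases at 0.16 and TGF-beta and BMP at 0.0019. Without the 5 dpi library, immediate early genes were at -0.083, collagens at 0.84, glycoproteins at 0.21, proteases at 0.10, contractile genes at 0.65 and TGF-beta and BMP at 0.043. Without the 3 dpi libraries, proteases were at -0.22 and ER folding at 0.086. Against 2 dpi alone, mitosis was at 1.57, collagens at 0.73, glycoproteins at 0.028, proteases at -0.23, ribosome biogenesis at 0.027 and ER folding at 0.14. Against 1 dpi alone, mitosis was at 3.66, collagens at 1.26, glycoproteins at 0.66, proteases at 0.079 and ribosome biogenesis at -0.63. In libraries of the Y-linked pattern, glycoproteins were at 0.20 and TGF-beta and BMP at -0.31. Without the leukocyte-marker libraries, cycle regulators were at 0.50, immediate early genes at -0.12, collagens at 0.75, glycoproteins at 0.21 and TGF-beta and BMP at 0.0075. With 1 library of another day than 5 dpi left out, proteases ranged from -0.19 to -0.022. Totals of 8021815 to 22029938 counts left genes under about 0.374 CPM unmeasured in the shallowest library.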

Other observations

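Markers of erythroid cells summed to between 308 and 2388 CPM in the 4 dpi libraries, between 1.81 and 26 CPM at 3 dpi and 26.7 CPM at 5 dpi, against 18.6 to 181 CPM early. Markers of cardiomyocytes summed to between 64.3 and 110 CPM at 4 dpi and between 135 and 333 CPM at 6 dpi, against 11.4 to 16.2 CPM at 3 dpi and 16 to 54.0 CPM early. The part of these in the differences between 4 and 3 dpi was not tested.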
